A study of Mus musculus with 30 samples.

Results

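The miR-101 family was followed in mouse hearts through its 3 members on the array, mmu-miR-101a, mmu-miR-101b and mmu-miR-101c (miR-101a, miR-101b and miR-101c from here on). They were found by name among 1079 mouse miRNAs, and all 3 passed the filter on dim probes, together with 303 others (306 miRNAs tested in all). The family was selected on its measured levels in exposed and control hearts of day 28, which were lower in the exposed ones. Those day 28 differences are therefore given as a description, with no test.

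The hearts came from female C57BL/6 mice that were bought at 5 to 6 weeks of age. Exposed mice received 162 µg of Printex 90, a carbon black nanoparticle, in a single dose into the trachea. Control mice received the vehicle, which the particles were also suspended in (0.9% NaCl with 10% by volume of cell-free lung lavage fluid from mice), so every animal was instilled. RNA was taken from the heart 1, 3 or 28 days later and hybridised to 1-colour Agilent miRNA arrays, 1 array per mouse. Scanner signals were used for 6 Printex 90 and 4 vehicle mice on day 1, 4 Printex 90 and 6 vehicle mice on day 3, and 5 Printex 90 and 4 vehicle mice on day 28. The 29 arrays lay on 4 slides. One further day 3 Printex 90 mouse had only a value in the deposited table of processed values. P-values measure the spread between these mice as labelled.

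A mature miRNA guides the Argonaute protein to messenger RNAs that pair with its seed, the bases near the 5′ end, and lowers the output of those messengers. miR-101 is best known for repressing Ezh2, the histone methyltransferase of the Polycomb complex, which was shown in human cancer cells, and Ptgs2, the inducible cyclooxygenase, which was shown in mouse uterus. In rat cardiac fibroblasts it was reported to repress Fos and to limit collagen production, so it is often listed among antifibrotic miRNAs of the heart.

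The mature sequences are shown because the members differ in so few bases that the array has to separate near-identical RNAs. They are taken from RefSeq annotation of GRCm38.p6, 5′ to 3′, with the shared stretch in capitals. miR-144, a red cell miRNA, is added for its partly shared seed.
miR-101a: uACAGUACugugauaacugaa
miR-101b: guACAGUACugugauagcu
miR-101c: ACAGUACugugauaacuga
miR-144: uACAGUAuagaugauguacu

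The unstarred array names miR-101a, miR-101b and miR-144 were taken as the 3p strands of their hairpins. The 7 capitals stand at positions 2 to 8 of miR-101a, the seed proper, but at positions 3 to 9 of miR-101b and 1 to 7 of miR-101c as annotated. miR-101c is identical to bases 2 to 20 of miR-101a, 19 of 19, with no substitution. miR-101b matches miR-101a at 17 of 18 aligned positions, with A16G counted from the 5′ end of miR-101a, carries 1 extra base at its 5′ end and lacks 3 at its 3′ end. The same 7 bases occur anywhere in 4 of 1679 mature mouse miRNAs of the table (0.238%), the fourth being miR-503-5p. miR-144 shares bases 2 to 7 with miR-101a and departs from it after that.

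The members come from separate chromosomes of GRCm38.p6. Mature miR-101a lies at chr4:101346957-101346977 on the minus strand, inside the long noncoding RNA gene E130102H24Rik, and the nearest protein-coding gene not overlapping it is Ak4. Mature miR-101b lies at chr19:29135338-29135356 on the plus strand, inside the protein-coding gene Rcl1. Mature miR-101c lies at chr9:3038680-3038698 on the minus strand and overlaps no protein-coding gene; the nearest, Alkbh8, is 296533 bases away. The other strands of the first 2 hairpins, miR-101a* and miR-101b*, are on the array and were detected on 0 of 29 arrays.

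All members were measured well above the background. Each had 2 probes of 20 spots, and all 580 spots of each probe over the 29 arrays were well above background, with none saturated. The standard error over the spots of a single probe had a median, over both probes and all arrays, of 0.644% of the signal for miR-101a. It was 1.35% for miR-101b and 0.757% for miR-101c. The spread between mice of a group was larger in each case, at 6.28%, 4.58% and 6.83%. The 2 probes of miR-101a moved together over the arrays (Pearson's r = 0.99, n = 29), as did those of miR-101c (0.91), and those of miR-101b did so less closely (0.61). The files used here give no probe sequences, so the signals named miR-101a and miR-101c are not shown to come from separate RNAs, and signals of different members were not ranked against each other.

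Levels are log2 of the signal, scaled so that the 75th percentile was the same on each array over the 416 probes seen on every one of them. Over the whole set, 18.4% to 27.5% of an array's spots were well above background, 228 to 339 mouse miRNAs were detected per array, and the 75th percentile differed up to 2.36-fold between arrays. The heart label was checked against tissue markers. All 5 cardiomyocyte miRNAs tested were detected, and the log2 of their summed signals stayed between 16.54 and 16.94 on every array. The brightest miRNAs weigh most in such a sum. By contrast, 6 airway epithelium and 2 brain miRNAs were detected on 0 arrays. The liver miRNA miR-122 was detected on 26 of 29 arrays, with a log2 level of at most 7.97.

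**Figure D1:**
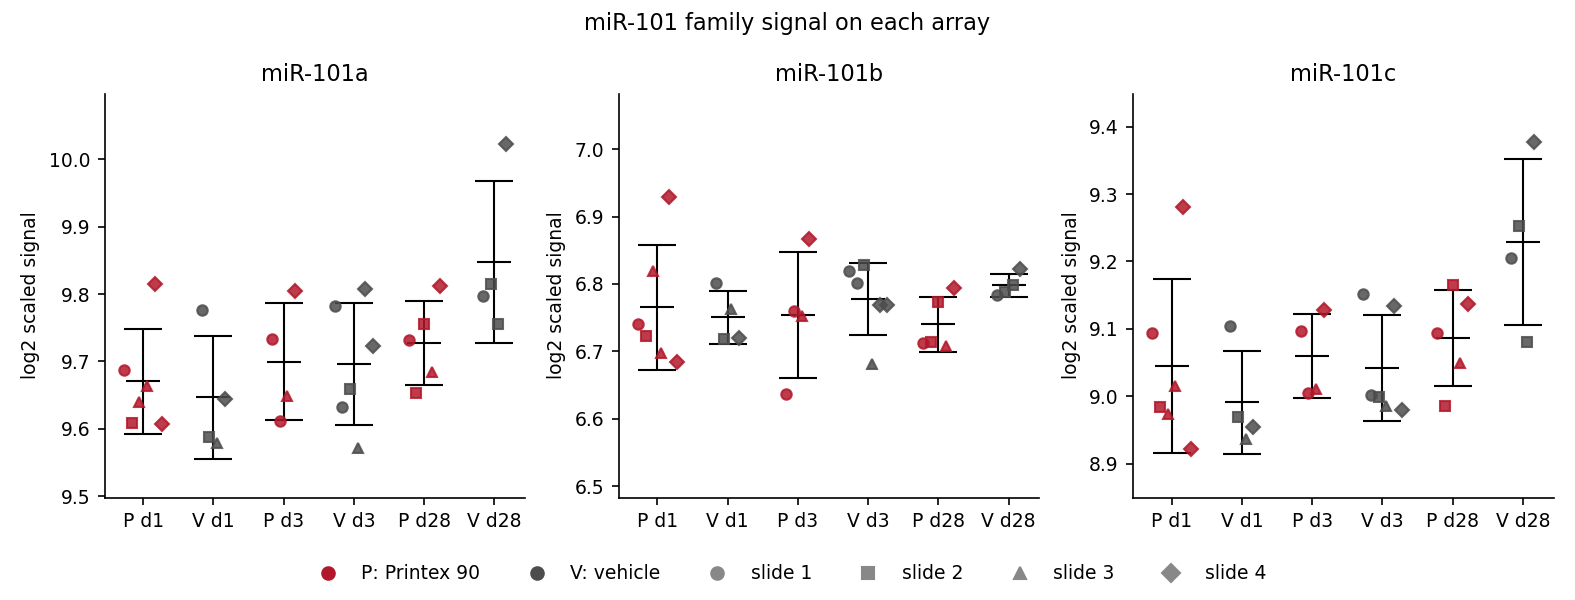
Log2 scaled signal of miR-101a, miR-101b and miR-101c (vertical axes, 1 panel each) on every array, with Printex 90 left of vehicle on each day. Markers give the slide, and black points with bars are group means ± SD. The vehicle arrays of day 28 include the highest value of miR-101a (10.02) and of miR-101c (9.38), and every pair of groups overlaps.

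One day after exposure the family stood at the same level in exposed and control hearts within the error. miR-101a ranged from 9.61 to 9.82 with a median of 9.65 in the 6 Printex 90 hearts, against 9.78, 9.59, 9.58 and 9.64 in the vehicle hearts. The vehicle values lay on both sides of the Printex 90 median, and the groups overlapped. The means were 9.67 ± 0.08 and 9.65 ± 0.09 (SD, n = 6 Printex 90 and 4 vehicle), a difference of 0.02 ± 0.07 (SE; adjusted p = 0.932 by limma).

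miR-101c, the 19-base form, ranged from 8.92 to 9.28 with a median of 9.00 in Printex 90 hearts, against 9.10, 8.97, 8.94 and 8.95 in vehicle hearts. One Printex 90 heart, replicate 5, stood above the others, and the groups overlapped. The difference was 0.05 ± 0.07 (adjusted p = 0.872 by limma). miR-101b ranged from 6.68 to 6.93 with a median of 6.73 in Printex 90 hearts, against 6.80, 6.72, 6.76 and 6.72 in vehicle hearts, with a difference of 0.02 ± 0.05 (adjusted p = 0.952 by limma). Its highest heart was the same replicate 5.

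None of the 3 members passed the threshold of an adjusted p of 0.05 on day 1, where limma called 0 of 306 miRNAs (0%); 2 of them had an unadjusted p under 0.05, and neither was a member. The 95% intervals of the differences were −0.11 to 0.16 for miR-101a, −0.10 to 0.13 for miR-101b and −0.09 to 0.20 for miR-101c. The intervals therefore hold both a fall and a rise, from 0.93-fold to 1.12-fold for miR-101a and from 0.94-fold to 1.15-fold for miR-101c. The sign of these day 1 differences turned with no scaling of the arrays and with scaling on total signal, so no direction is given for them. In bulk heart RNA, fewer cells that hold a miRNA and less of it per cell cannot be told apart.

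On day 3 the members again lay together in both groups. miR-101a had 9.73, 9.61, 9.65 and 9.80 in the 4 Printex 90 hearts, against a range of 9.57 to 9.81 with a median of 9.69 in the 6 vehicle hearts. The Printex 90 values fell inside the vehicle range, and the difference was 0.00 ± 0.07 (adjusted p = 0.998 by limma; 95% interval −0.13 to 0.14). miR-101c had 9.10, 9.00, 9.01 and 9.13, against 8.98 to 9.15 with a median of 9.00 in vehicle hearts. All 4 exposed hearts again lay within the vehicle range, and the difference was 0.02 ± 0.07 (adjusted p = 0.998 by limma).

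miR-101b on day 3 had 6.64, 6.76, 6.75 and 6.87 in Printex 90 hearts, against 6.68 to 6.83 with a median of 6.79 in vehicle hearts. Its lowest and its highest exposed heart bracketed the vehicle range, and the difference was −0.02 ± 0.05 (adjusted p = 0.998 by limma). Again none of the 3 members was called, with 0 of 306 miRNAs (0%) called by limma on day 3 and 1 at an unadjusted p under 0.05. The signs of the day 3 differences also turned with the scaling. The exposure difference on day 3 minus that on day 1 was −0.02 ± 0.09 for miR-101a, −0.04 ± 0.08 for miR-101b and −0.04 ± 0.10 for miR-101c (adjusted p = 0.959, 0.893 and 0.940 by limma), where 0 of 306 miRNAs (0%) were called and 2 had an unadjusted p under 0.05.

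On day 28, the contrast in which the family was noticed, the 3 members had lower means in Printex 90 hearts. miR-101a had 9.73, 9.65, 9.76, 9.68 and 9.81 in Printex 90 hearts, against 9.80, 9.81, 9.76 and 10.02 in vehicle hearts. The vehicle heart at 10.02, replicate 4, stood above all others, and the groups overlapped between 9.76 and 9.81. miR-101c had 9.09, 8.99, 9.17, 9.05 and 9.14 in Printex 90 hearts, against 9.21, 9.25, 9.08 and 9.38 in vehicle hearts. Its lowest vehicle heart lay among the exposed ones, and its highest was the same replicate 4.

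miR-101b had 6.71, 6.71, 6.77, 6.71 and 6.79 in Printex 90 hearts, against 6.78, 6.79, 6.80 and 6.82 in vehicle hearts. The highest exposed heart, replicate 5, lay above vehicle replicates 1 and 2, so the groups overlapped. The differences were −0.12 ± 0.07 (SE) for miR-101a, −0.06 ± 0.06 for miR-101b and −0.14 ± 0.07 for miR-101c, or −7.98%, −3.92% and −9.43% relative to the vehicle level. Each probe of a member gave the same sign, with −0.13 and −0.11 for miR-101a, −0.05 and −0.06 for miR-101b, and −0.16 and −0.13 for miR-101c.

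For each member, all 5 exposed hearts lay below the vehicle mean, as they did for 9 of 306 miRNAs (2.94%), the members included. For miR-101a, the vehicle hearts at 9.80, 9.81 and 9.76 also lay below that mean (9.85). Some vehicle hearts did so for miR-101b and miR-101c too. The median difference of all 306 miRNAs was 0.01, 44.8% of them had a lower mean in Printex 90 hearts, and limma called 0 of them (0%), with 1 at an unadjusted p under 0.05. Since this contrast chose the family, these counts are not evidence for it.

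**Figure D2:**
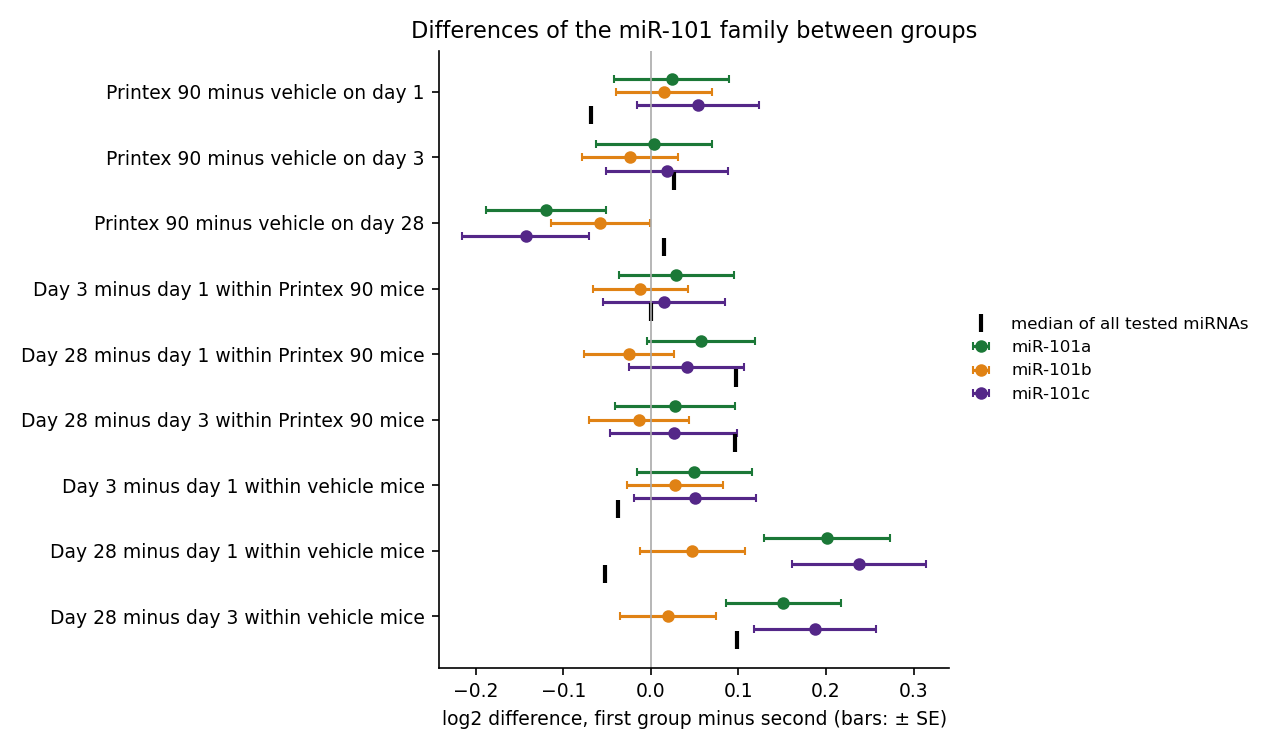
Log2 difference ± SE of each member (coloured points, horizontal axis) in 9 comparisons, later or exposed group minus the other, with a black tick at the median of all 306 miRNAs. The members lie near 0 on days 1 and 3 and below 0 on day 28 for Printex 90 minus vehicle, and miR-101a (0.20) and miR-101c (0.24) lie above 0 for vehicle day 28 minus day 1.

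One vehicle heart carried weight in these means. Without vehicle replicate 4 of day 28 the difference was −0.06 for miR-101a, −0.05 for miR-101b and −0.09 for miR-101c. Arrays of both groups on day 28 shared slides 1, 2 and 4. Within them, the difference of miR-101a was −0.06, −0.08 and −0.21, that of miR-101b −0.07, −0.05 and −0.03, and that of miR-101c −0.11, −0.09 and −0.24. All 9 of these are below 0, and for miR-101a and miR-101c the largest sits on slide 4, which holds that vehicle heart. The 9 values come from the contrast that chose the family, with few arrays of each group on a slide. The members also share these arrays, so the 9 values are not separate checks. Their common sign is not evidence for the family.

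The size of the day 28 difference moved with the scaling, while its sign did not turn under any setting tried. Every setting reuses the arrays of the contrast that chose the family, so the unchanged sign is not evidence for it. Over the settings tried, the median of all miRNAs lay between −0.16, with scaling on all probes, and 0.04, with normexp background correction. Relative to that median, the difference was −0.13 for miR-101a as reported and lay between −0.19 and −0.07 over 16 settings. The same measure was −0.07 for miR-101b, with a range of −0.19 to −0.05, and −0.16 for miR-101c, with a range of −0.21 to −0.13.

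**Figure D3:**
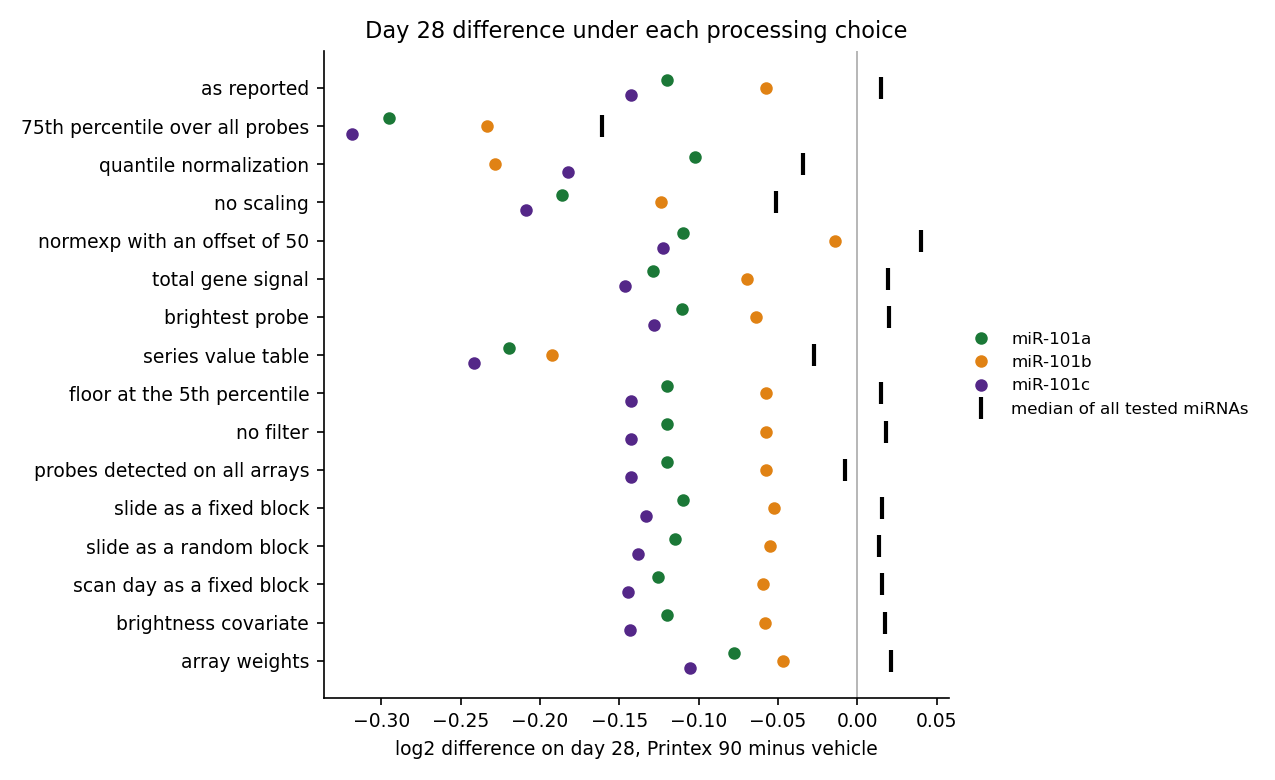
Log2 difference of each member on day 28, Printex 90 minus vehicle (horizontal axis), under each processing choice (rows), with a tick at the median of all miRNAs tested. The member points lie left of the tick in every row. All rows reuse the arrays of the contrast that chose the family, so their common side is not evidence for it.

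The vehicle hearts, which show age and time after instillation without particles, had higher mean levels of miR-101a and miR-101c on day 28 than earlier. These comparisons use the vehicle arrays of day 28 that helped to choose the family, so the day 28 values are not independent of it. miR-101c averaged 9.23 ± 0.12 on day 28 and 8.99 ± 0.08 on day 1 (SD, n = 4 each), a difference of 0.24 ± 0.08 (adjusted p = 0.201 by limma; 95% interval 0.08 to 0.40), or 17.9%. miR-101a averaged 9.85 ± 0.12 on day 28 and 9.65 ± 0.09 on day 1, a difference of 0.20 ± 0.07 (adjusted p = 0.345 by limma; 95% interval 0.05 to 0.35), or 14.9%. miR-101b differed by 0.05 ± 0.06 (adjusted p = 0.794 by limma).

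The vehicle groups of day 28 and day 1 overlapped for each member, where 9 of 306 miRNAs (2.94%) lay wholly above. None of the 3 members passed the threshold, and limma called 6 of 306 miRNAs (1.96%). Within the slides that held both days the difference of miR-101c was 0.10, 0.20 and 0.42 on slides 1, 2 and 4, and that of miR-101a was 0.02, 0.20 and 0.38. Without vehicle replicate 4 of day 28 the differences were 0.19 for miR-101c and 0.14 for miR-101a. When arrays were weighted by their fit, both passed (adjusted p = 0.00467 for miR-101c and 0.0212 for miR-101a by limma with array weights). That weighting did not converge, and it also called 106 miRNAs for vehicle day 3 minus day 1, where the fit without weights called 0. These p-values use the day 28 arrays that helped to choose the family, so they are no independent test of a rise.

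Against day 3, the vehicle hearts of day 28 were higher by 0.19 ± 0.07 for miR-101c, 0.15 ± 0.07 for miR-101a and 0.02 ± 0.05 for miR-101b (adjusted p = 0.300, 0.490 and 0.900 by limma), none past the threshold, where 1 of 306 miRNAs (0.327%) was called. That miRNA, named after its values were seen, was miR-208b, which is encoded in a slow myosin gene and fell by 1.08 on the log2 scale (adjusted p = 0.00011 by limma). With scaling on total signal miR-101c passed the threshold here, at 0.26 (adjusted p = 0.0302 by limma), and with array weights at 0.20 (adjusted p = 0.0476 by limma). Both p-values use the vehicle arrays of day 28 that helped to choose the family, and the array weights did not converge. Day 3 minus day 1 in vehicle hearts gave 0.05, 0.03 and 0.05 for miR-101a, miR-101b and miR-101c (adjusted p = 0.807, 0.894 and 0.825 by limma), with 0 of 306 miRNAs (0%) called and 19 at an unadjusted p under 0.05.

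In the exposed hearts the same comparisons over time were made, and those with day 28 again use arrays that helped to choose the family. miR-101a averaged 9.73 ± 0.06 on day 28 (SD, n = 5) and 9.67 ± 0.08 on day 1 (n = 6), a difference of 0.06 ± 0.06 (adjusted p = 0.654 by limma). The same comparison gave −0.03 ± 0.05 for miR-101b and 0.04 ± 0.07 for miR-101c (adjusted p = 0.823 and 0.776 by limma). None of the 3 was called, and limma called 2 of 306 miRNAs (0.654%), miR-208b and miR-301a, named after their values were seen. Against day 3, the day 28 values differed by 0.03, −0.01 and 0.03 for miR-101a, miR-101b and miR-101c (adjusted p = 0.913, 0.953 and 0.921 by limma), with 1 of 306 (0.327%) called, again miR-208b.

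Day 3 minus day 1 in Printex 90 hearts was 0.03, −0.01 and 0.01 for the same members (adjusted p = 0.999 for each by limma), with 0 of 306 (0%) called and 0 at an unadjusted p under 0.05. The exposure difference on day 28 minus that on day 1 rests on the contrast that chose the family and is therefore not tested.

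In order of the mean of its 6 groups, miR-101a was highest in vehicle hearts of day 28 at 9.85, followed by Printex 90 on day 28 at 9.73, both groups of day 3 at 9.70, Printex 90 on day 1 at 9.67 and vehicle on day 1 at 9.65. miR-101c had the same group on top at 9.23, then Printex 90 on day 28 at 9.09, and vehicle on day 1 at the bottom at 8.99. miR-101b spanned only 6.74, in Printex 90 hearts of day 28, to 6.80, in vehicle hearts of day 28. Neighbours in these orders differed by less than the residual SD between mice of a group, except at the top step of miR-101a and miR-101c. That step is the day 28 contrast that chose the family, so its size is not evidence for the family. The residual SD describes single mice and is not the error of a difference between means.

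**Figure D4:**
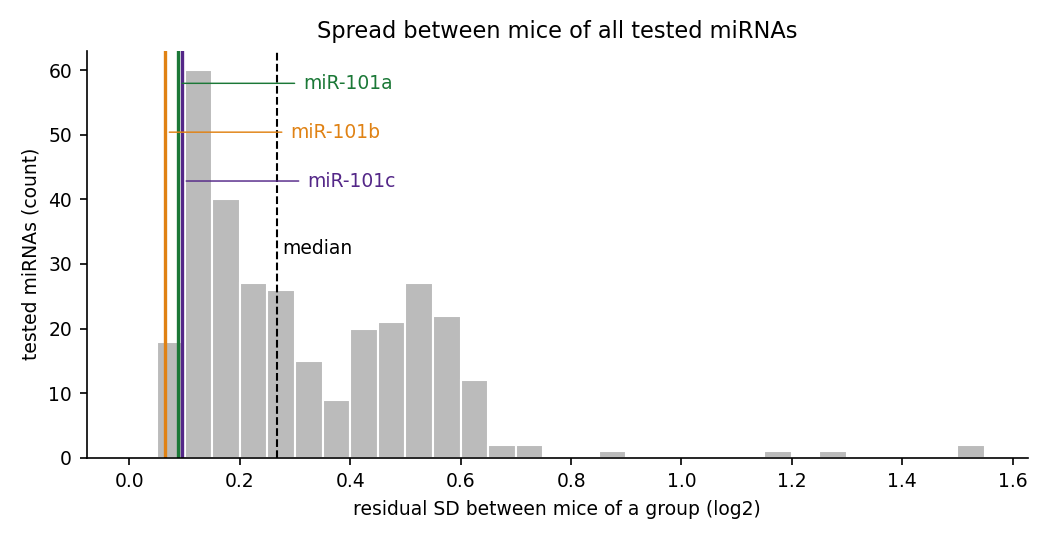
Histogram of the residual SD between mice of a group (log2, horizontal axis) over the 306 miRNAs (counts on the vertical axis), with lines at the members and at the median. The members, at 0.09, 0.06 and 0.10, lie at the low end, and the median is 0.27.

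The family varied little between mice of a group under the scaling used here. The residual SD was 0.09 for miR-101a, 0.06 for miR-101b and 0.10 for miR-101c, and the median of the 306 miRNAs was 0.27. With only probes detected on all arrays, the median was 0.20 over 210 miRNAs. As processed here, 7 miRNAs (2.29%) had a smaller residual SD than miR-101a, 13 (4.25%) than miR-101c and 0 than miR-101b. That rank depends on the scaling: 118 miRNAs had a smaller one than miR-101b after quantile normalization and 63 with no scaling. In the deposited table of processed values, 186 had a smaller one than miR-101a. There miR-101a (0.21) and miR-101c (0.20) lay above the median of 0.18, and miR-101b (0.12) lay below it.

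**Figure D5:**
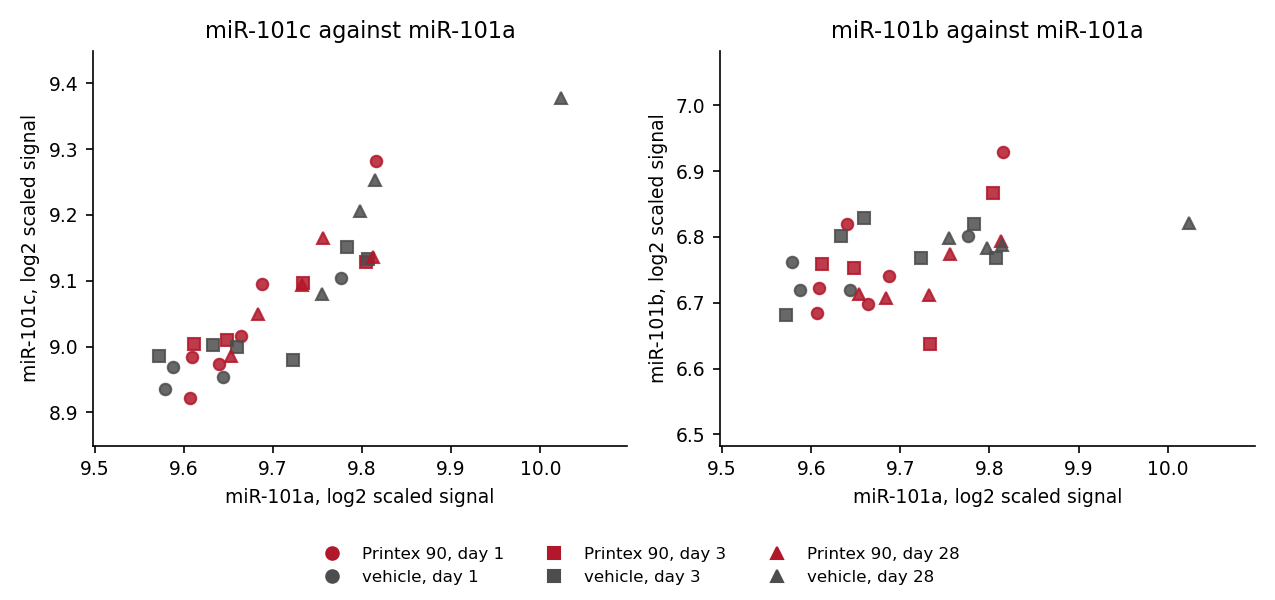
Scatter of miR-101c (left) and miR-101b (right) against miR-101a, log2 scaled signal on both axes, 1 point per array (29), with Printex 90 and vehicle in separate colours. miR-101c follows miR-101a closely (Pearson's r = 0.92), and miR-101b does so loosely (r = 0.51).

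miR-101a and miR-101c moved together over the 29 arrays, with Pearson's r of 0.92 and Spearman's rho of 0.91. The correlation was 0.88 with the group means removed, 0.89 without the 2 arrays farthest from the median of miR-101a, and 0.81 to 0.94 within the 4 slides. The gap between their log2 levels had an SD of only 0.04 over the arrays. Pairs with miR-101b were looser, with r of 0.51 for miR-101a and 0.52 for miR-101c, and within slides these ran from 0.01 to 0.62 and from −0.49 to 0.76. The points share array, slide and scaling, and whether a probe for miR-101a also binds miR-101c, or the reverse, was not tested. The correlation of the members with array brightness was 0.02, −0.02 and 0.02.

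Among the 303 other tested miRNAs, the 5 whose levels followed the mean of the family most closely over the 29 arrays by Spearman's rho were miR-26b (0.68), miR-31 (0.62), miR-26a (0.62), miR-29c* (0.59) and miR-7a-1* (0.56). The median over all 303 was 0.09. With group means removed, rho stayed at 0.69 for miR-26b, 0.61 for miR-26a and 0.60 for miR-7a-1*, but was 0.43 for miR-31 and 0.44 for miR-29c*, so 3 of the 5 stayed among the top 10. On day 28 the differences of these miRNAs, Printex 90 minus vehicle, were −0.08 ± 0.07 for miR-26b, −0.18 ± 0.11 for miR-31, −0.09 ± 0.07 for miR-26a, −0.12 ± 0.09 for miR-29c* and 0.01 ± 0.14 for miR-7a-1*, none of them called. Limma called 0 of 306 miRNAs (0%) in this contrast. The 5 were picked for likeness over the same arrays, group differences included, so their day 28 differences are not independent of the family's.

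Other miRNAs with the same reported targets were set beside the family. For Printex 90 minus vehicle limma called 0 of 306 miRNAs (0%) on each day, so 0 called on a list is not particular to its targets. Of 7 further miRNAs reported to repress Ezh2, 4 were tested, and 4 of 4 were higher on day 1, 2 of 4 on day 3 and 1 of 4 on day 28 in Printex 90 hearts, with medians of 0.05, 0.02 and −0.05 on the log2 scale and 0 called. The best known, miR-26a, differed by 0.03, 0.00 and −0.09 on the 3 days. The 4 miRNAs reported to repress Ptgs2 had medians of 0.04, −0.01 and −0.07, with 0 called, and among them miR-199a-3p differed by 0.07, −0.06 and −0.09. The medians of all 306 miRNAs were −0.07, 0.03 and 0.01, and 35%, 60.1% and 55.2% of them were higher in Printex 90 hearts. The lists are not separate: miR-26b is on both, and miR-26a and miR-26b also followed the family above.

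Of the other antifibrotic miRNAs of the heart, 7 of 7 were tested. In Printex 90 hearts, 4 of 7 were higher on day 1, 1 of 7 on day 3 and 0 of 7 on day 28. Over all 306 miRNAs the shares were 35%, 60.1% and 55.2%. The medians of the 7 were 0.02, −0.03 and −0.09, with 0 called, as over all 306 miRNAs (0%) on these days. Among them, miR-26a is also on the Ezh2 list. miR-29a and miR-29b, which repress collagen messengers, differed by −0.13 ± 0.12 and −0.16 ± 0.09 on day 28. In vehicle hearts, day 28 minus day 1, 7 of 7 were higher with a median of 0.15. Of all miRNAs 41.8% were higher, with a median of −0.05. Of these 7, 3 rose past the threshold, beside the 6 of 306 (1.96%) called in all. These 3 were miR-29a, miR-29b and miR-29c, which share 1 seed. The list was chosen with earlier results of these data known, so this count is not evidence for the list as a group. miR-29b rose by 0.54 ± 0.10 (adjusted p = 0.00156 by limma). The 3 profibrotic miRNAs had medians of −0.03, −0.02 and 0.01 for Printex 90 minus vehicle on days 1, 3 and 28, with miR-21, which is induced in injured heart, at 0.04, 0.07 and 0.01 and 0 called.

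miR-144, whose sequence is printed above for its partly shared seed, differed by 0.42 ± 0.24 on day 1 and −0.19 ± 0.24 on day 3 (adjusted p = 0.749 and 0.998 by limma), and by 0.33 ± 0.25 on day 28. None of these passed the threshold, and 0 of 306 miRNAs (0%) did so on each of these days.

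Markers of cardiomyocytes and of other cell types were set beside the day 28 values. Sums are given as the log2 of the summed signals, in which the brightest miRNAs weigh most. For 5 cardiomyocyte miRNAs the sum was 16.74 to 16.94 in Printex 90 hearts and 16.81 to 16.90 in vehicle hearts. All 5 had lower means in Printex 90 hearts (median −0.07). For 3 fibroblast miRNAs the sums were 10.06 to 10.33 in Printex 90 hearts and 9.98 to 10.79 in vehicle hearts, with 3 of 3 lower. For 4 red cell miRNAs they were 13.57 to 14.66 in Printex 90 hearts and 13.38 to 13.68 in vehicle hearts, with 3 of 4 higher. For 4 leukocyte miRNAs the sums were 9.83 to 10.33 in Printex 90 hearts and 9.72 to 9.97 in vehicle hearts, with 2 of 4 higher. Both endothelial and both smooth muscle miRNAs had lower means in Printex 90 hearts, with medians of −0.03 and −0.04, and the liver miRNA miR-122 differed by −0.51 ± 0.76. None of these markers was called on day 28, where limma called 0 of 306 miRNAs (0%). The part of cell makeup in the levels of the family was not tested.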

How the data were processed

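Arrays were scanned and processed with Agilent Feature Extraction 10.7.3.1, per the file headers. The intensity used is its processed signal, which the authors deposited per spot. The deposited table of processed values (log2, made by the authors by steps not given in the sources used here) served as an alternative. Outlier spots were left out and the rest averaged per probe. A probe counted as detected where at least 0.5 of its spots were well above background. Each array was scaled to a common 75th percentile, taken over 416 probes seen on every array, set to a floor of 16.5 and log2 transformed. A miRNA is the mean of its probes that 4 or more arrays of any group detected, which gave 306 miRNAs. One mean per group was fitted over 29 arrays with limma 3.58.1 (R 4.3.3), and p-values were adjusted by Benjamini-Hochberg over all 306. The procedure was tested on simulated data with independent noise. The planted differences were larger than those of the members, so the power at the members' sizes was not tested. The file of 1 mouse held no scanner signal, and that mouse was left out of the fit. The members, lists, likeness rule (the 5 miRNAs with the highest Spearman's rho to the family mean) and tests were chosen with earlier results of these data known. Alternatives were other scalings, background correction, floors, filters, probe rules, slide and scan day as blocks, array weights, and leaving out each array. The number of arrays limits the precision.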

Additional observations from a re-analysis of the deposited data

How the results depend on the processing

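No paired analysis was possible because replicate numbers follow accession order only and name no shared animal, litter or batch. The day 28 exposure difference kept its sign for all 3 members under every setting tried. That contrast chose the family and the settings reuse its arrays, so the kept sign is not evidence for the family. Leaving out 1 array in turn gave −0.15 to −0.06 for miR-101a, −0.07 to −0.05 for miR-101b and −0.19 to −0.09 for miR-101c. Other settings gave −0.30 to −0.08, −0.23 to −0.01 and −0.32 to −0.11. Differences near 0 on other contrasts changed sign with the setting; none of those values passed the threshold. Normexp used the median spot signal, since the files hold no mean signal. The array weights did not converge. With no filter, miRNAs at the floor on every array were left out (428 tested).

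On all-probe 75th percentile scaling, day 3 exposure differences were −0.083 (miR-101a) and −0.068 (miR-101c). Within Printex 90 mice miR-101b was 0.035 for day 3 minus day 1, while miR-101a and miR-101c were −0.11 and −0.13 for day 28 minus day 1 and −0.19 and −0.19 for day 28 minus day 3. Vehicle day 28 minus day 3 was −0.11 for miR-101b. After quantile normalization miR-101c was −0.034 for Printex 90 day 28 minus day 3 and miR-101b −0.082 for vehicle day 28 minus day 3; with normexp miR-101b was 0.030 and −0.0098 on these contrasts. With the brightest probe miR-101a was −0.0030 for day 3 exposure, and with slide as a fixed block miR-101c was −0.0017 for Printex 90 day 3 minus day 1.

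With no scaling, exposure differences of day 1 were −0.17, −0.17 and −0.14 for miR-101a, miR-101b and miR-101c, and that of miR-101b on day 3 was 0.10. Their day 3 minus day 1 interaction was 0.30, 0.28 and 0.28, and vehicle day 3 minus day 1 was −0.18, −0.21 and −0.18. Within Printex 90 mice miR-101b was 0.072 for day 3 minus day 1, miR-101c −0.0036 for day 28 minus day 1, and miR-101a and miR-101c −0.10 and −0.10 for day 28 minus day 3. Vehicle day 28 minus day 1 was −0.12 for miR-101b. On total gene signal, day 1 exposure was −0.053, −0.053 and −0.025, the interaction 0.12, 0.096 and 0.10, vehicle day 3 minus day 1 −0.020, −0.045 and −0.017, and miR-101b 0.043 for day 3 exposure, 0.050 for Printex 90 day 3 minus day 1 and 0.044 for day 28 minus day 1.

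In the series value table, day 3 exposure was −0.050 for miR-101a and −0.087 for miR-101c. Printex 90 day 3 minus day 1 was −0.013, 0.0052 and −0.039 for the members in order, day 28 minus day 1 −0.12 (miR-101a) and −0.097 (miR-101c), and day 28 minus day 3 −0.11 and −0.059. With array weights miR-101b was −0.00089 for day 1 exposure, 0.013 for Printex 90 day 3 minus day 1 and −0.013 for vehicle day 28 minus day 3, and miR-101c −0.0085 for Printex 90 day 3 minus day 1.

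Leaving out 1 array in turn moved the exposure difference of miR-101a, miR-101b and miR-101c between −0.036 and 0.067, −0.048 and 0.032, and −0.024 and 0.092 on day 1, and between −0.032 and 0.033, −0.062 and 0.015, and −0.0044 and 0.040 on day 3. The interaction ranged from −0.064 to 0.061, −0.077 to 0.045 and −0.074 to 0.063. Printex 90 day 3 minus day 1 ranged from −0.0059 to 0.062, −0.049 to 0.027 and −0.0099 to 0.066, day 28 minus day 1 of miR-101b from −0.042 to 0.019, and day 28 minus day 3 from −0.0051 to 0.063 for miR-101a and −0.053 to 0.024 for miR-101b. Vehicle day 3 minus day 1 of miR-101b ranged from −0.021 to 0.045.

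The count of miRNAs called moved too. Printex 90 day 28 minus day 1 gave 1 with all-probe scaling, quantile normalization or the value table, 0 with no scaling or normexp, 7 on total gene signal, 5 with no filter, 6 with slide (fixed or random) or scan day as a block, and 12 with array weights. Printex 90 day 28 minus day 3 gave 0 with quantile normalization, no scaling, normexp or probes detected on all arrays, 2 with no filter or the fixed slide block, 3 with scan day and 13 with array weights. Vehicle day 28 minus day 1 gave 1 with all-probe scaling, 2 with quantile normalization or the value table, 0 with no scaling, 3 with normexp and 11 with array weights. Vehicle day 28 minus day 3 gave 0 with quantile normalization, no scaling, normexp or probes detected on all arrays, 5 on total gene signal, 2 with the floor at the 5th percentile or a brightness covariate, 3 with no filter or the fixed slide block, 4 with the random slide block or scan day and 10 with array weights. Array weights also gave 1 for day 3 exposure and 106 for vehicle day 3 minus day 1. Leaving out 1 array gave 1 to 4, 1 to 2, 3 to 7 and 1 to 5 on these 4 day 28 contrasts, in the order given.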

Other observations

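The day 3 Printex 90 mouse without scanner signal, replicate 3, has values in the deposited table of processed values, on that table's own log2 scale. Its values were 9.59 for miR-101a, 7.33 for miR-101b and 9.06 for miR-101c. The other 4 mice of its group ranged there from 9.73 to 10.05, 7.31 to 7.58 and 9.08 to 9.46, so this mouse lay below the others for miR-101a and miR-101c and inside their range for miR-101b. The Pearson correlation between that table and the scaled scanner signal was 0.39, 0.30 and 0.47 for miR-101a, miR-101b and miR-101c over the 29 arrays.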
